A study of Mus musculus with 4 samples.

Results

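The type I interferon gene Ifnb1, the receptor genes Ifnar1 and Ifnar2, the kinase genes Jak1 and Tyk2, the transcription factor genes Stat2 and Stat3 and the feedback inhibitor genes Socs1 and Socs3 were followed across the arrays. These 9 of 31704 genes were found by their gene name among the spots that were not controls, which gave 12 of 39429 probes. The genes were chosen from earlier results on the same 4 arrays, so the values that chose them (the scaled signals and their ratios) are given below as a description. Mouse embryonic fibroblasts (MEFs) of 2 genotypes, p53+/+ (wild-type, WT) and p53-/-, were each kept without or with doxorubicin, an anthracycline that damages DNA, and total RNA of each condition was labeled and hybridized to 1 one-color array. The 4 conditions were thus WT without doxorubicin, WT with doxorubicin, p53-/- without doxorubicin and p53-/- with doxorubicin, and all arrays lay on 1 slide. The agent's dose and time for the array samples, the age of the embryos, and whether MEFs of a genotype came from 1 or several embryos are not given in the sources used here. With 1 array per condition no difference has a replicate check, and no p-value was calculated. MEFs are a bulk population, in which fewer cells of a kind and less RNA per cell cannot be told apart.

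Type I interferons such as interferon beta, the product of Ifnb1, are secreted by fibroblasts and other cells that sense viral or misplaced nucleic acid. They bind a receptor built from the IFNAR1 and IFNAR2 chains, on which the kinases TYK2 and JAK1 phosphorylate STAT2, which acts with IRF9 in the complex ISGF3 that binds interferon-stimulated response elements (ISRE). STAT3 is the main STAT of the interleukin-6 family, which signals through gp130 and JAK1, and SOCS1 and SOCS3 are induced by STATs and shut the receptors down in a feedback loop.

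Each probe is a 60-base stretch, and the stretch decides which end of a transcript a value speaks of. The first 30 bases of the probes on which the results turn are shown for that reason, 5′ to 3′ in lower case.
Ifnb1: tttaagcatcagaggcggactctgggactg
Stat2: ctgaatagttagaaagaactgttgtcctga
Socs1: gagggtctctggcttcatttttctgctgtg
Socs3: ccttcgaggctgtctgaagatgcttgaaaa
Ifnar1, brightest probe: gctctacctcaagagactaagagggtgaac
Ifnar1, second probe: cctcactactaccttgtatctcagtctcct
Stat3, brightest probe: cactctgtgagctgataccccaggctggga
Stat3, other probe: tttaacattctgggcacgaacacaaaagtg
In the files' mm9 coordinates, the Ifnb1 probe lies at chr4:88168023-88168082 on the minus strand, the Stat2 probe at chr10:127729834-127729893 on the plus strand, the Socs1 probe at chr16:10783951-10784010 and the Socs3 probe at chr11:117827480-117827539, both on the minus strand. The brightest and the second Ifnar1 probes lie at chr16:91510673-91510732 and chr16:91506635-91506693, and the remaining one spans chr16:91503764-91505350. The Stat3 probes lie at chr11:100749598-100749657, the brightest, and chr11:100759946-100760005. The Ifnar2 probe (chr16:91394044-91394103), the Jak1 probe (chr4:100825094-100825153) and the Tyk2 probe (chr9:20909321-20909380) complete the set. No annotation of this build was used here, so exons and untranslated regions are not named.

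Promoter sequence is shown for the 3 genes that differed most between genotypes under doxorubicin and for Ifnb1. The letters are the 250 bases before the annotated start, from RefSeq on GRCm38.p6 (all 9 genes had an entry), with capitals marking a match to an ISRE core in Stat2 and Socs1, to a gamma-activated site (GAS) in Socs3 and to a kappaB motif in Ifnb1.
Stat2: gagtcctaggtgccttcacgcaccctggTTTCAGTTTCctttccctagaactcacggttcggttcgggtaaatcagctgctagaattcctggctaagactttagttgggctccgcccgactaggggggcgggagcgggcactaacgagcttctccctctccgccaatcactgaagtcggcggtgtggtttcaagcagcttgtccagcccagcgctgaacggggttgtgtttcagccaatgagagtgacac
Socs1: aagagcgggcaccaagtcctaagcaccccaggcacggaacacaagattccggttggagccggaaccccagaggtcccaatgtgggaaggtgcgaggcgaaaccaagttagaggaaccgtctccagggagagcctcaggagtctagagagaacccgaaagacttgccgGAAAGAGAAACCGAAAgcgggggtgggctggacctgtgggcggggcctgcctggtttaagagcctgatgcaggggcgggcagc
Socs3: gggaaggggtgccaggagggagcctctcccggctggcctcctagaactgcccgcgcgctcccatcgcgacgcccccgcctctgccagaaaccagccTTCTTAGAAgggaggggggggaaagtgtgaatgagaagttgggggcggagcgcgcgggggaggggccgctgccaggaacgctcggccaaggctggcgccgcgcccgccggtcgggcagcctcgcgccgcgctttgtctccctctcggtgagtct
Ifnb1: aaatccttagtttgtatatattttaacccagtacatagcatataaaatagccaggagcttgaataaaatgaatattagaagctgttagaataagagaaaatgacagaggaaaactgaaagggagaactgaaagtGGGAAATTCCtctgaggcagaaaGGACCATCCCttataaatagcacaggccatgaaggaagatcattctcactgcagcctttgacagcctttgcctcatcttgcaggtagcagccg
The windows lie at chr10:128270248-128270497 on the plus strand for Stat2, and on the minus strand at chr16:10785537-10785786 for Socs1, chr11:117969367-117969616 for Socs3 and chr4:88522795-88523044 for Ifnb1. The search used 300 bases per gene, 250 before and 50 after the start, on both strands. The ISRE core was GAAANNGAAA or its complement TTTCNNTTTC, the GAS was TTCNNNGAA, and the kappaB motif was GGGNNNNCC, GGGNNNNNCC or their complements GGNNNNCCC and GGNNNNNCCC. The ISRE core was found in 2 of the 9 genes. Counting from the annotated start, its first base was at -222 in Stat2 and at -83 and -77 in Socs1, where the matches overlap. Of all 32851 windows, 3.44% held it. GAS matches were found in Ifnar1, Ifnar2 and Socs3, beside 8.30% of all windows, and kappaB matches were found in 8 genes (all but Ifnar1), a motif so short that 62.4% of all windows held it. A match is a run of letters and not a site shown to be bound.

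**Figure D1:**
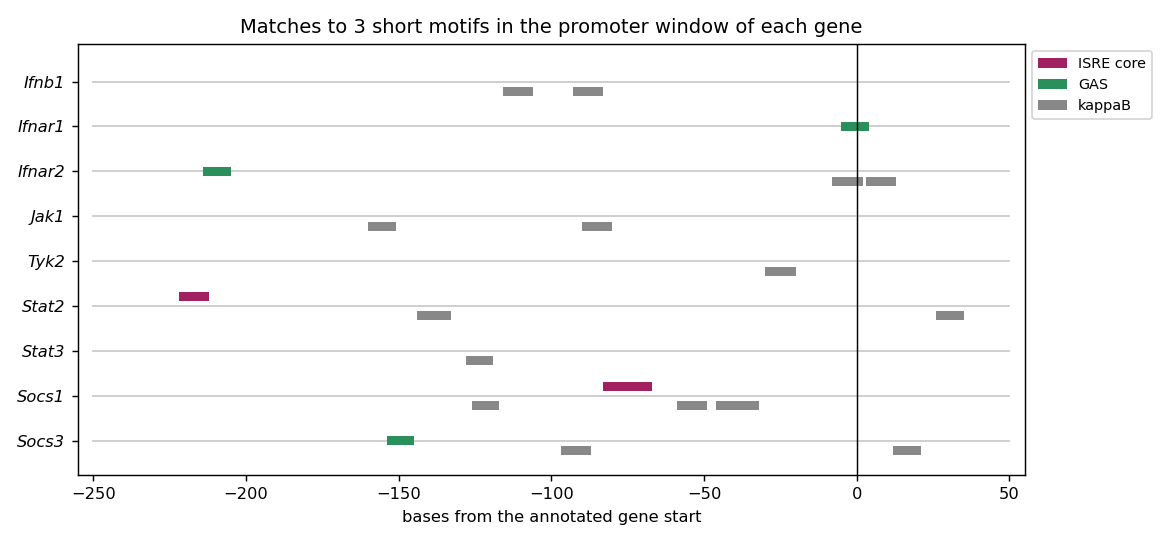
Positions of motif matches in the promoter window of each gene, in bases from the annotated start (horizontal axis), with 1 line per gene and a bar for each match (red ISRE core, green GAS, gray kappaB). Only Stat2 and Socs1 carry a match to the ISRE core as searched, and Ifnar1 is the 1 gene with no kappaB match. GAAA runs at another spacing, as in the Ifnb1 letters, were not counted.

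Levels are given as scaled signal, the spot's intensity divided by the 75th percentile of its array. A scaled signal of 1 is thus the 75th percentile itself. The percentiles lay between 1819 and 2421, and 56.9% to 62.9% of the probes were well above background by the scanner program's test. Probes spotted 10 times gave the technical spread, an SD of 0.06 on the log2 scale for a spot and 0.09 for a ratio, which holds no variation between cultures. Signals of the p53 target genes Cdkn1a and Mdm2 were 977 and 13656 in untreated p53-/- MEFs and 28619 and 52283 in untreated WT MEFs, and Trp53 itself read 1228 and 3442 in WT and 442 and 543 in p53-/- MEFs without and with doxorubicin, all well above background. All 14 fibroblast markers were well above background on every array, with a summed scaled signal of 663 to 1095, lowest in doxorubicin-treated p53-/- MEFs and brightest for Col1a2. Marker by marker, 6 of the 14 were at least 2-fold lower with doxorubicin in WT MEFs, led by Lum (log2 ratio -4.81) and Pdgfra (-3.36), and 2 in p53-/- MEFs, with medians of -0.82 and -0.46. Jak1, Stat3 and Socs3 were lowest on the same array, doxorubicin-treated WT MEFs. Of 14 leukocyte markers 7 to 9 were well above background. Their sum was 56.2 to 75.2, lowest in doxorubicin-treated p53-/- MEFs and highest in doxorubicin-treated WT MEFs. Most of it came from Siglech (14.8 to 20.1 without it). Itgam (raw signals 26264 to 31691), Csf1r (2739 to 5530), Cd3e (701 to 998) and Adgre1 (275 to 583) were also well above background on every array. In contrast, Cd79a, Klrb1c and Spi1 were among those well above background on no array. Of 6 epithelial markers 3 or 4 were, with a sum of 5.35 to 17.9, highest in doxorubicin-treated p53-/- MEFs through Krt18, while Epcam and Cldn4 were on no array, and of 5 endothelial markers 2 to 4 were. The part of these markers in the results was not tested.

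The ligand was above background in 1 condition. Ifnb1 had raw signals of 12.4 in untreated WT, 23.9 in doxorubicin-treated WT, 12.0 in untreated p53-/- and 336.5 in doxorubicin-treated p53-/- MEFs, and the program called it well above background only on the last array. Set against the dimmest spot with such a call on each of the other arrays, Ifnb1 was at least 4.51-fold higher with than without doxorubicin in p53-/- MEFs, and at least 5.70-fold higher in p53-/- than in WT MEFs under doxorubicin. Its level in WT MEFs was not well above background without or with the drug, so no ratio was formed there. The brightest of 153 negative control spots read 250.1 on the untreated p53-/-, 77.5 on the doxorubicin-treated WT and 120 on the doxorubicin-treated p53-/- array. Set against the brightest negative control of the dimmer array instead, the bounds were 1.05-fold (over untreated p53-/-) and 3.26-fold (over doxorubicin-treated WT). Ifnb1 was thus detected on 1 array of 4, from 1 spot per array.

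Other interferon genes had weak signals. Of 19 further interferon genes 15 were on the array, and 5 were measured in both doxorubicin comparisons, with log2 ratios between 0.05 and 0.64 in WT and between -0.27 and 0.67 in p53-/- MEFs, and 0 at least 2-fold changed in either. Those 5 were called well above background on every array. On the doxorubicin-treated p53-/- array, where Ifnb1 read 336.5, 7 of the 15 exceeded the brightest negative control of that array (120), with signals from 120.5 for Ifng to 248 for Ifnab.

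The receptor chains differed by less than 2-fold in each comparison. Ifnar2, the chain that binds interferon most tightly, had scaled signals of 3.43 and 3.14 in WT and 2.72 and 2.95 in p53-/- MEFs, without and with doxorubicin. Ordered by level, each array was within 0.17 of the next on the log2 scale, which is 2 SD of a repeat-spot ratio, while the untreated genotypes, at the ends of that order, were 0.34 apart. Ifnar1, read by its brightest probe, had scaled signals of 2.83 in untreated WT, 1.76 in doxorubicin-treated WT, 1.63 in untreated p53-/- and 1.04 in doxorubicin-treated p53-/- MEFs. That probe put Ifnar1 lower with doxorubicin in both genotypes (log2 ratios -0.69 for WT and -0.65 for p53-/- MEFs), and lower in p53-/- than WT MEFs by -0.79 without and -0.76 with the drug. Its levels spanned 1.45 on the log2 scale, and 4.71% of genes had a lower ratio between the untreated genotypes. The second Ifnar1 probe gave -0.33 and 0.15 for doxorubicin and -0.21 and 0.26 for genotype, so the fall in p53-/- MEFs and the lower level under doxorubicin rest on 1 of the 2 probes that measured them. The third Ifnar1 probe was near background, with log2 ratios of -0.16 for doxorubicin in WT MEFs and -0.06 between the untreated genotypes. The size of that genotype difference thus rests on the brightest probe.

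The receptor's kinases went different ways. Jak1, which also serves the interleukin-6 family, had scaled signals of 9.84 and 6.35 in WT and 8.90 and 10.01 in p53-/- MEFs, without and with doxorubicin. Doxorubicin-treated WT MEFs were thus the low array, with a log2 ratio of -0.63 beside 0.17 in p53-/- MEFs. Tyk2, the kinase bound to IFNAR1, had scaled signals of 0.400, 0.351, 0.320 and 0.235 in the same order, lowest in doxorubicin-treated p53-/- MEFs (log2 ratio -0.19 in WT and -0.44 in p53-/- MEFs). Neither kinase gene reached a 2-fold change in any comparison.

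**Figure D2:**
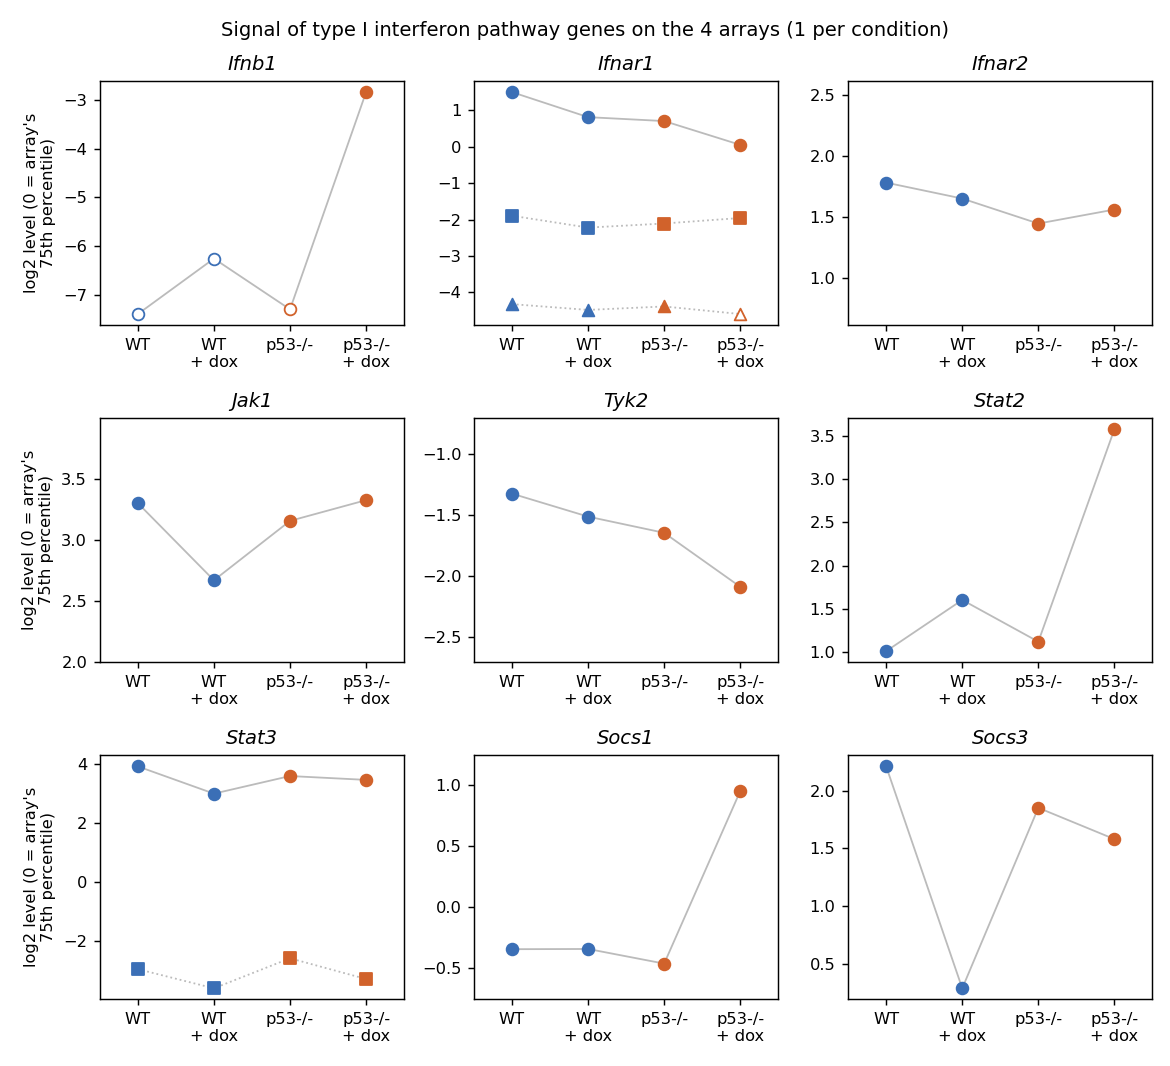
Log2 level of each gene on the 4 arrays (vertical axis, 0 is the array's 75th percentile, each panel with its own range), blue for WT and orange for p53-/- MEFs. Filled points are well above background, open ones are not, and squares and triangles are further probes of a gene. Ifnb1, Stat2 and Socs1 are highest in doxorubicin-treated p53-/- MEFs, and Socs3 is lowest in doxorubicin-treated WT MEFs.

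Of the 8 genes measured on all arrays, Stat2 varied most. Its scaled signal was 2.02 in untreated WT, 3.04 in doxorubicin-treated WT, 2.18 in untreated p53-/- and 11.9 in doxorubicin-treated p53-/- MEFs. The untreated arrays were 0.11 apart on the log2 scale, within 2 SD of a repeat-spot ratio, and the treated ones stood above both. With doxorubicin Stat2 was 1.51-fold higher in WT and 5.48-fold higher in p53-/- MEFs (log2 ratios 0.59 and 2.45). Among 16950 genes measured in p53-/- MEFs, 200 had a higher ratio. Under doxorubicin p53-/- exceeded WT MEFs 3.92-fold.

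Stat3 moved the other way, and in WT MEFs. Its brightest probe, averaged over 10 spots, had scaled signals of 15.1 and 7.98 in WT and 12.1 and 11.02 in p53-/- MEFs, without and with doxorubicin. Doxorubicin-treated WT MEFs were the low array, with a log2 ratio of -0.92 in WT beside -0.13 in p53-/- MEFs. The other Stat3 probe, at scaled signals of 0.0827 to 0.167, gave -0.65 and -0.70, so the difference between genotypes (WT minus p53-/-) was -0.79 by the brightest probe and 0.05 by the other.

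The feedback inhibitors both ended higher in p53-/- than in WT MEFs under doxorubicin, by different routes. Socs1, which blocks JAK kinases at the interferon receptors, had scaled signals of 0.786 and 0.787 in WT and 0.724 and 1.93 in p53-/- MEFs, without and with doxorubicin. The doxorubicin-treated p53-/- array stood alone, 2.66-fold above the untreated one, and the other arrays lay within 2 SD of a repeat-spot ratio of their neighbors. Socs3, which acts on gp130, had scaled signals of 4.63 and 1.22 in WT and 3.61 and 2.99 in p53-/- MEFs. Here doxorubicin-treated WT MEFs stood alone, 3.80-fold below untreated WT MEFs, and only 470 of 17513 genes had a lower ratio. In p53-/- MEFs the log2 ratio of Socs3 was -0.27. Under doxorubicin p53-/- exceeded WT MEFs 2.45-fold for Socs1 and 2.45-fold for Socs3.

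**Figure D3:**
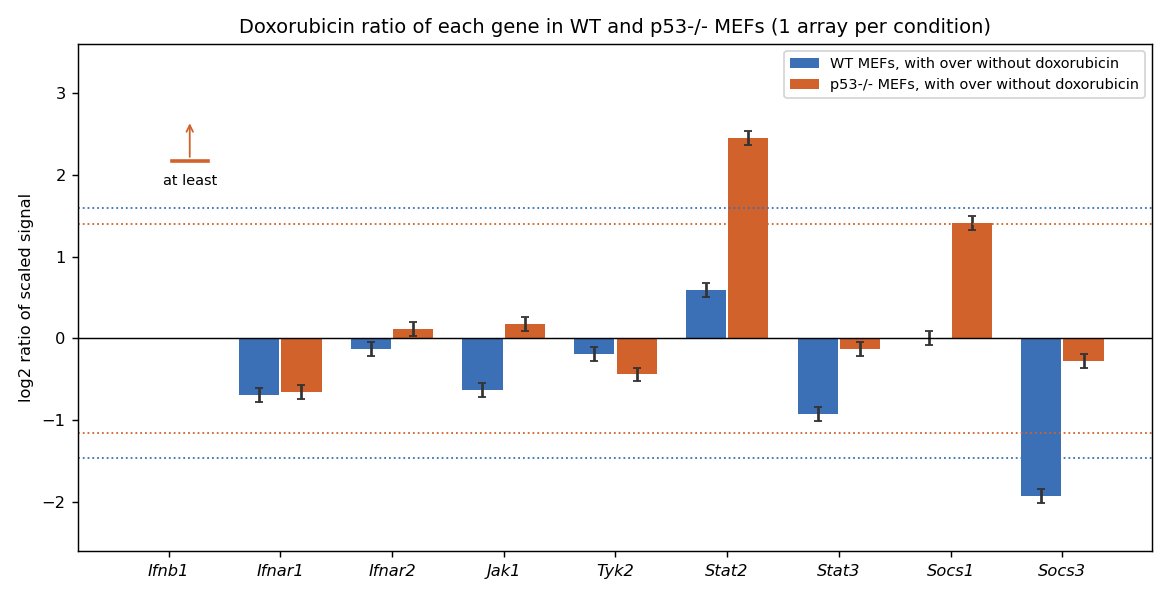
Log2 ratio of scaled signal, with over without doxorubicin (vertical axis), of each gene in WT (blue) and p53-/- MEFs (orange), 1 array per condition. Error bars are the SD of a repeat-spot ratio (0.09) and hold no variation between cultures, dotted lines are the 5th and 95th percentiles of all measured genes in that color, and the arrow marks the lower bound of Ifnb1. Stat2 (2.45), Socs1 (1.41, just above the 95th percentile of 1.40) and the bound of Ifnb1 (2.17) in p53-/- MEFs and Socs3 in WT MEFs (-1.93) lie outside the lines. That bound is set against the dimmest spot called well above background. Against the brightest negative control it is 1.05-fold, which lies inside the lines.

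Counted at 2-fold over the 8 genes measured on all arrays (all but Ifnb1), doxorubicin put 0 higher and 1 (Socs3) lower in WT MEFs, where 11% of 17513 genes were higher and 10.4% lower. In p53-/- MEFs 2 were higher (Stat2 and Socs1) and 0 lower, where 9.24% of 16950 genes were higher and 6.89% lower. Between untreated genotypes 0 differed, where 2.15% of genes were higher and 2.61% lower in p53-/- MEFs. Under doxorubicin 3 were higher in p53-/- MEFs (Stat2, Socs1 and Socs3) and 0 lower, where 11.9% of genes were higher and 10.3% lower. The doxorubicin ratio was at least 2-fold lower in WT than in p53-/- MEFs for the same 3, and for 9.86% of 16513 genes. These comparisons share arrays, and the genes were chosen with these values known, so nothing is read from the counts. The median log2 ratio of the 8 genes was -0.41 in WT and -0.01 in p53-/- MEFs with doxorubicin, beside 0.01 and 0.00 over all genes. Scaling to the array median instead lowered the median of all genes to -0.27 and -0.30, and the split of all genes from 1930 higher and 1828 lower to 1319 and 2792 in WT, and from 1567 and 1168 to 955 and 2098 in p53-/- MEFs. On that scale Stat3 fell at least 2-fold in WT MEFs too (-1.20), and Jak1 (-0.13) and Ifnar2 (-0.18) changed sign in p53-/- MEFs, as Socs1 did in WT MEFs (-0.27).

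The rest of the pathway is described by lists of genes. With doxorubicin, 11% of all genes were at least 2-fold higher and 10.4% lower in WT MEFs. In p53-/- MEFs 9.24% were higher and 6.89% lower. List counts near these shares are not read as a result about the list. Of 8 other JAK and STAT genes, Irf9 counted among them, 7 were measured in WT and 5 in p53-/- MEFs. Stat5a was the 1 gene at least 2-fold lower with doxorubicin in WT MEFs (log2 ratio -1.90) and read 0.18 in p53-/- MEFs, with 0 higher in WT. Irf9, the DNA-binding partner of STAT2, was the 1 gene higher in p53-/- MEFs (1.79) and read 0.51 in WT MEFs. Both were named after their values were seen, to give the counts. Of the 3 other interferon receptor genes measured in both comparisons (Ifngr1, Ifngr2 and Il10rb), 0 changed 2-fold in either. Ifnlr1, a chain of the type III interferon receptor, was above background only with doxorubicin, at least 2.41-fold higher in WT and at least 2.77-fold higher in p53-/- MEFs, and it too was named after its values were seen.

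The measured ISGF3 target genes were, like Stat2, brightest in doxorubicin-treated p53-/- MEFs. Of 25 on the array, 11 of 17 measured were at least 2-fold higher with doxorubicin and 0 lower in WT MEFs, and 19 of 19 measured were higher in p53-/- MEFs, with median log2 ratios of 1.88 and 3.64. The filter on dim signals passes such genes more readily where they are high, and 6 in WT and 5 in p53-/- MEFs were above background only with the drug. Usp18, which holds back signaling at IFNAR2, had doxorubicin ratios of 5.39 (WT) and 6.62 (p53-/-) on the log2 scale, the highest among the list genes with a ratio. Genes above background only with the drug have lower bounds, the largest at least 61.6-fold for Rsad2 in p53-/- MEFs, and can lie above it. Oas1a, an enzyme that activates RNase L, had 2.53 and 5.16, and Ifit3, an antiviral binding protein, 1.14 and 5.11. Under doxorubicin 20 of 23 were at least 2-fold higher in p53-/- than WT MEFs, beside 11.9% of all genes. Rsad2 (4.87), Oasl1 (4.16) and Cmpk2 (4.07) led them. Of the 20 list genes with a promoter window, 10 held the ISRE core searched for above, beside 3.44% of all windows. The list was made of targets of a complex that binds such elements, so nothing is read from this count.

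The inducers of Ifnb1 were mixed. Of 14 measured, 2 were at least 2-fold higher and 1 lower with doxorubicin in WT MEFs, and 5 were higher and 0 lower in p53-/- MEFs. Cgas, the sensor of cytosolic DNA, read by the brightest of 3 probes, had log2 ratios of -2.08 for WT and 1.02 for p53-/- MEFs, and was 3.72 higher in p53-/- than WT MEFs under the drug. Ikbke, a kinase of IRF3, went the other way (2.29 and 0.24). Irf1, an activator of the Ifnb1 promoter, had -0.70 and 1.61. Ifih1, a sensor of double-stranded RNA that is also an ISGF3 target, had 1.86 and 3.36. Irf7, an amplifier of interferon production that is in both lists too, had raw signals of 15.9, 319, 24.7 and 2997, and was at least 6.42-fold higher with doxorubicin in WT and at least 40.2-fold higher in p53-/- MEFs.

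Upstream of STAT3, 2 of 11 measured gp130 cytokine and receptor genes were at least 2-fold higher and 4 lower with doxorubicin in WT MEFs, and 3 were higher and 0 lower in p53-/- MEFs. Il6, the cytokine itself, had raw signals of 515, 649, 633 and 12146, a log2 ratio of 0.52 in WT and 3.90 in p53-/- MEFs. Il6ra, its receptor chain, had 2.24 and 1.03, and Lifr, the receptor of leukemia inhibitory factor, -2.09 and -0.73. The shared chain gp130, gene Il6st, was among the 4 that were lower in WT MEFs (-1.54) and read -0.22 in p53-/- MEFs, so that, as for Socs3, doxorubicin-treated WT MEFs were the low array, and it was named after its values were seen. Of 12 STAT3 target genes, 2 were higher and 2 lower in WT MEFs, and 4 higher and 0 lower in p53-/- MEFs, beside the same shares of all genes. Bcl3, a nuclear regulator of NF-kappaB, had -1.98 and 0.51 and was 2.49 higher in p53-/- than WT MEFs under the drug.

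Among 16 other inhibitors of JAK-STAT signaling, all measured, 3 were at least 2-fold higher and 0 lower with doxorubicin in each genotype. Usp18 and Isg15, which are ISGF3 targets as well, were in both groups of 3, with Isg15 at log2 ratios of 2.63 and 4.09. The remaining gene was Pias3 in WT (1.02) and Cish in p53-/- MEFs (1.26). Socs2, the nearest relative of Cish, had -0.82 and 0.14, and Socs4 0.29 and 0.91, so Socs1 was the 1 gene of the SOCS family past 2-fold in p53-/- MEFs other than Cish. These 4 genes were named after their values were seen.

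**Figure D4:**
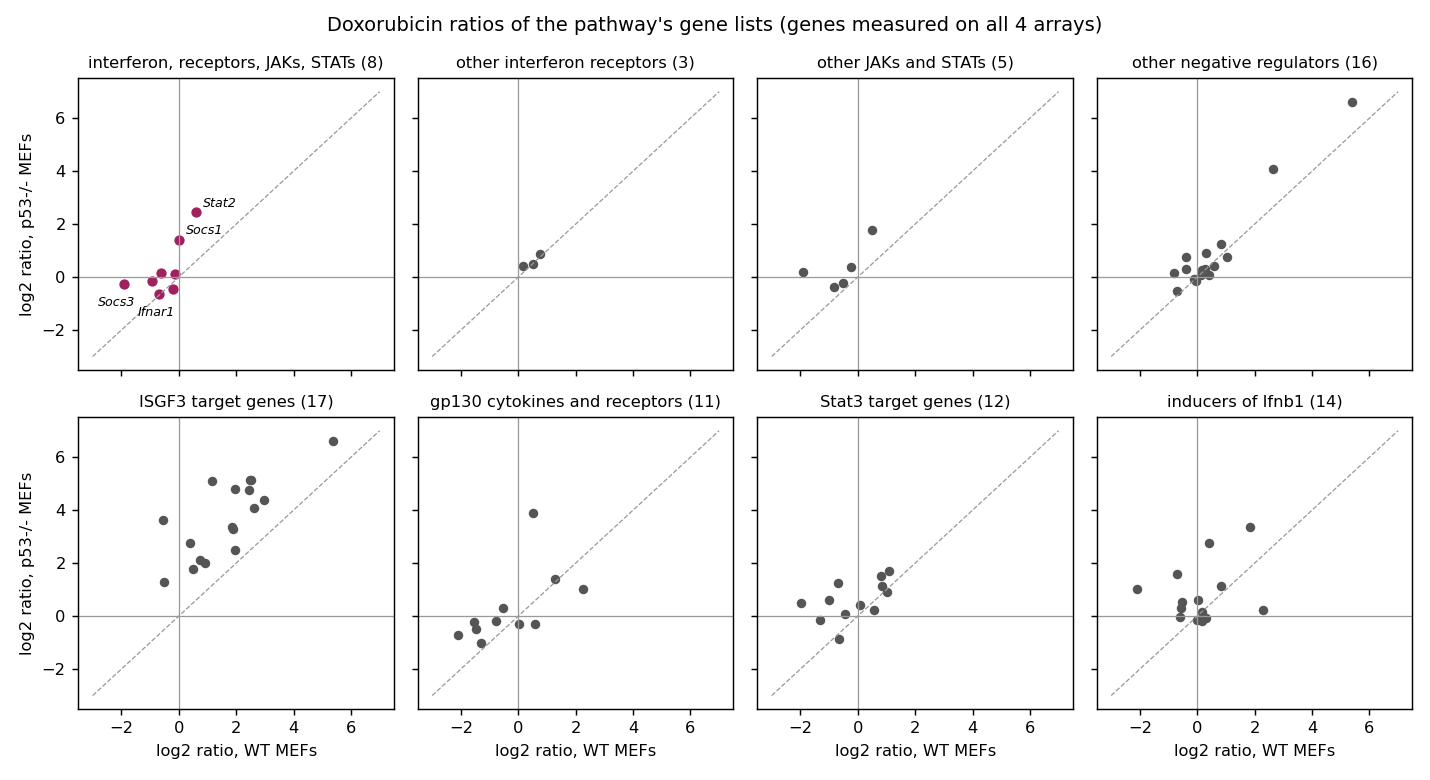
Log2 ratio with over without doxorubicin in WT MEFs (horizontal axis) and p53-/- MEFs (vertical axis), 1 point per gene measured on all 4 arrays, with the number of points over each panel and a dashed line where both ratios are equal. All 17 ISGF3 target points lie above the line.

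Genes with the most similar pattern were sought among 7011 others that were well above background on all 4 arrays and varied at least 2-fold, by the root mean square difference of centered log2 levels over the 4 arrays. For Stat2 these were an Ensembl transcript without a gene name (0.03), Crym (0.07) and the chemokine gene Ccl2 (0.11). The first of these read 151 and Crym 209 on the untreated p53-/- array, below its brightest negative control. For Socs1 they were Sirt1 (0.03), Zfp12 (0.05), which read 116 on that array, and Sh3gl3 (0.05). For Socs3 they were Rgcc (0.08), Nupr1 (0.08) and Fuom (0.09). Ifnb1 could not be compared in this way, since 3 of its arrays were at background. Each pattern holds 4 points, and no p is given.

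**Figure D5:**
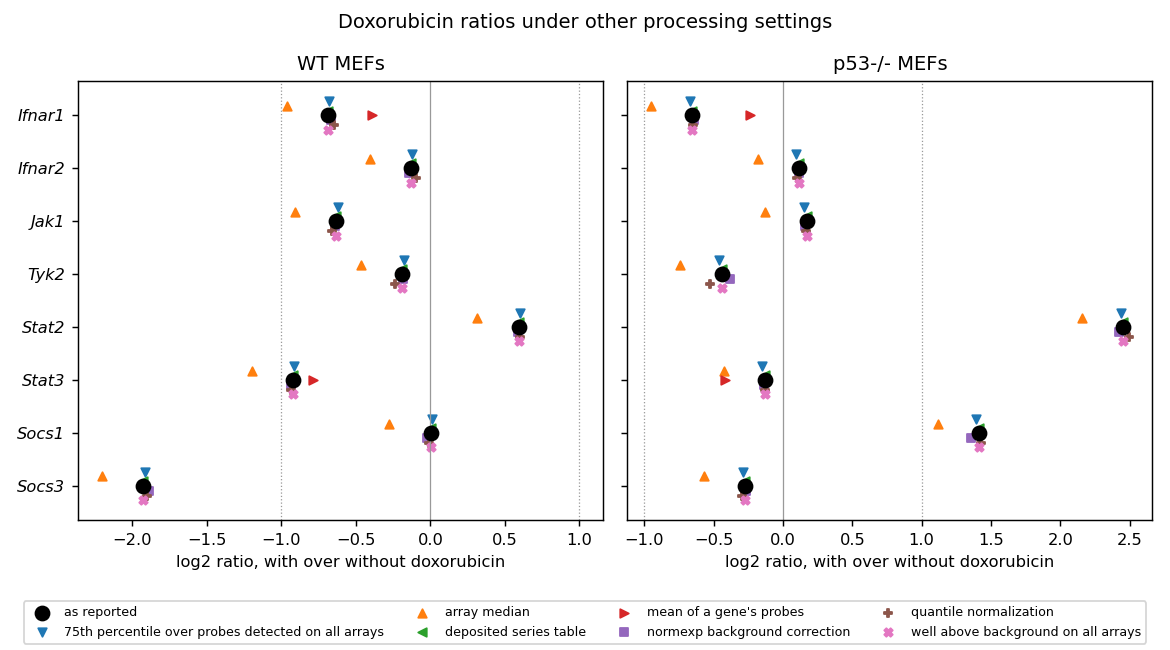
Log2 ratio with over without doxorubicin (horizontal axis) of each gene in WT (left) and p53-/- MEFs (right), as reported (black) and under 7 other settings (colored marks), with dotted lines at 2-fold. Scaling to the array median moved every gene down, and averaging all probes of a gene moved Ifnar1 and Stat3.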

How the data were processed

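Each of the 4 conditions (WT and p53-/- MEFs, doxorubicin absent or present) has 1 one-color Agilent mouse array. The authors labeled 200 ng of total RNA with Cy3 and read the arrays with Feature Extraction 10.7.3.1. The deposited intensity of a spot had its background subtracted and spatial trends removed by that program, with no step between arrays. Other deposited columns used here are flags of 0 or 1 (well above background, saturated, outlier), and mean and local background intensities for 1 alternative. The authors' table of intensities held the same values.

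Outlier spots (145 to 168 per array) were left out, 0 were saturated, repeat spots were averaged in log2, and each array was set to a 75th percentile of 0. A gene was its brightest probe over the 4 arrays. Ratios needed that probe to be well above background on both arrays, and were otherwise bounded by the dimmest spot with such a call (44.3 to 87.1). A change was counted at 2-fold. Names came from RefSeq (GRCm38.p6) for 30179 probes, and 9250 kept the file's name. List genes were named from 4-fold up, at most 5 per list and comparison, or where stated after their values were seen. Alternatives changed scaling, background correction (limma 3.58.1, R 4.3.3), filter, probe rule, source table and threshold. The calculations (Python 3.11.15, pandas 2.3.3) were checked on simulated data. The members and lists were chosen with earlier results of these data known. The number of arrays limits the precision. Some list genes are counted but not reported here by name.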

Additional observations from a re-analysis of the deposited data

Results flagged for a closer look

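The doxorubicin ratio of 2 genes had opposite signs in the genotypes, and neither difference was tested. Jak1 read -0.63 in WT and 0.17 in p53-/- MEFs on the log2 scale, a difference of -0.80, and Ifnar2 read -0.13 and 0.11, a difference of -0.25. A stricter criterion used first, that both ratios exceed 2 SD of a repeat-spot ratio (0.17), named neither gene, and it was dropped after the values were seen. Scaling to the array median gave both genes the same sign in both genotypes (-0.91 and -0.13 for Jak1, -0.41 and -0.18 for Ifnar2).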

How the results depend on the processing

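Of 320 ratios recomputed under 8 other settings, 295 moved by less than the repeat-spot SD of a ratio (0.09) or of a difference of ratios (0.12), 25 moved further, and 0 that had reached 2-fold changed sign. Many of the 295 could not move, so their number is no measure of stability. All 8 genes with ratios were well above background on every array, so neither change of filter could alter them. The authors' table held the same values, and averaging probes cannot move a gene with 1 probe. Genes at least 2-fold higher with doxorubicin in WT MEFs numbered 1 in place of 0 with no filter on dim probes (Ifnb1) and 1 at a threshold of 1.5-fold (Stat2). Genes lower there numbered 2 in place of 1 under array median scaling (Stat3 and Socs3) and 4 at 1.5-fold. In p53-/- MEFs 1 was higher in place of 2 at 3-fold (Stat2), and 1 lower in place of 0 at 1.5-fold (Ifnar1). At 1.5-fold 1 gene (Ifnar1) was lower in p53-/- than WT MEFs, in place of 0, both without and with doxorubicin, and at 3-fold 1 was higher in place of 3 under doxorubicin (Stat2). The doxorubicin ratio was lower in WT MEFs for 5 in place of 3 at 1.5-fold and for 2 at 3-fold (Stat2 and Socs3). With no filter on dim probes, Ifnb1 was added to the higher genes in p53-/- MEFs (3 in place of 2), to those higher in p53-/- MEFs under doxorubicin (4 in place of 3) and to those with the lower ratio in WT MEFs (4 in place of 3). Across the settings that kept the filter, the Stat2 ratio in p53-/- MEFs was 2.16 to 2.49, that of Socs1 1.12 to 1.43, and that of Socs3 in WT MEFs -2.20 to -1.89. The mean of its probes put Ifnar1 at -0.39 in WT and -0.24 in p53-/- MEFs, and moved Stat3 to -0.42 in p53-/- MEFs and to 0.02 between untreated genotypes. Ifnb1 rests on signals near background on 3 arrays. No paired analysis was possible because each condition has 1 array.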
